A study of Mus musculus with 18 samples.

Results

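T cell and intraepithelial lymphocyte genes were followed in ileum cells of mice that differed in diet and in intestinal Pgc1α. The set holds 39 genes, found by exact match of the gene name on the array. All 39 had at least 1 probe among the 56605 non-control probes and 37074 gene names of the array, and each gene is represented by its brightest probe. A probe entered the test if 5 or more of the 6 arrays in any group read it well above background, which left 36 of the 39 members among 21542 tested genes. Ctla4, Eomes and Cd27 were not tested. Ctla4 and Eomes were well above background on 0 of 18 arrays, and Cd27 on 3 of 6 chow arrays and on no other.

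Each of the 18 arrays carried RNA of the ileum cells of 1 mouse. The groups were iPGC1afl/fl CHOW, iPGC1afl/fl HFD and iPGC1a-/- HFD, with 6 mice each, all on a C57BL6/J background. The mice labelled iPGC1afl/fl carried the floxed Pgc1α allele and served as controls, and those labelled iPGC1a-/- carried in addition Cre under the Villin promoter, which is active in the intestinal epithelium and not in lymphocytes. HFD, called a Western diet by the study, took 42% of its kcal from fat and had 0.2% cholesterol. Feeding began at an age of 8 weeks and lasted 8 weeks. Cells were released from the opened ileum with a chelating buffer, which frees the epithelial sheet together with the lymphocytes lodged in it, and no sort was made. No iPGC1a-/- mice on chow were analysed here, which leaves the diet effect in that genotype unmeasured.

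Intraepithelial lymphocytes are T cells that sit between the enterocytes, above the basement membrane. Many carry the CD8 coreceptor, hold ready-made granzymes, and stay in the epithelium through the integrin αE (CD103) paired with β7, which binds E-cadherin on enterocytes. A T cell reads antigen through its receptor (TCR) and the CD3 chains, and the kinases Lck and Zap70 and the adaptor Lat pass the signal on. In such bulk RNA, fewer T cells and less of each transcript per T cell cannot be told apart.

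The probes decide what is read as a member's level, and 5 of them are shown because results below turn on them. All probes were 60 bases long and their mm9 positions come from the array files. The 60 bases of the Cd3d and Cd244 junction probes lie over 232 and 527 bases of genome, so each crosses an intron. In the brightest Cd244 probe the capitals mark a run of 16 bases that probes of 8 other gene names also hold. The brightest probes of Cd244 and Cd4 are shown over 30 of their bases only, the first 30 for Cd244 and the last 30 for Cd4.
Cd3d, junction probe, chr9:44794171-44794402, plus strand: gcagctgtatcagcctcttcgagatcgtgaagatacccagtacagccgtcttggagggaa
Cd244, junction probe, chr1:173507474-173508000, plus strand: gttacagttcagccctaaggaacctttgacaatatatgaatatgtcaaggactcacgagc
Cd244, brightest probe, chr1:173515388-173515447, plus strand: tgCACAGAGAAACCCTGTctcaatccctaa
Cd4, second probe, chr6:124817706-124817765, minus strand: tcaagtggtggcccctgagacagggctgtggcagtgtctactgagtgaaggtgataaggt
Cd4, brightest probe, chr6:124814711-124814770, minus strand: acagaaaaataaaggctataaataaaatgc

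Levels below are log2 signals after normalization, given as the lowest, the median and the highest of the 6 arrays of a group. Differences are log2 fold changes with their standard error (SE). A gene was called when its adjusted p was 0.05 or lower and its fold change above 1.5. On each array 56.3% to 62.3% of spots passed as well above background, and each of the 3 slides carried 2 arrays of every group. The targeted gene, Ppargc1a, was not lower on the arrays labelled iPGC1a-/-. Its brightest probe read 10.104, 11.17 and 11.25 in iPGC1afl/fl CHOW, 11.26, 11.40 and 11.45 in iPGC1afl/fl HFD and 11.36, 11.63 and 12.01 in iPGC1a-/- HFD. The genotype difference was 0.30 ± 0.16 (SE, adjusted p = 0.572). In the paper, RT-qPCR showed the deletion in the intestinal tracts, and Pgc1α target genes were lower in the ileum. Whether the array probes of Ppargc1a lie in the deleted exons was not determined, so the genotype is given as labelled.

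On HFD, T cell genes were lower across nearly every role in the floxed mice. Of the 36 tested members, 27 were called lower and 1, Cd4, was called higher, while 5.2% of all tested genes were called lower and 3.22% higher. The median difference of the tested members was -1.34 on the log2 scale, a 2.53-fold lower level, against 0.00 over all tested genes. Cd6, which fell by 2.61, had the largest difference, followed by Cd5, Gzma, Cd52 and Gzmb. For 25 members all 6 HFD arrays lay below all 6 CHOW arrays, as did 5.3% of all tested genes. The filter bears on these counts, since Cd69, Icos, Cd160, Klrk1 and Ifng passed it through the CHOW arrays alone. All of these but Cd69 are among the 25 without overlap, and Icos and Ifng are among those called lower. These entries are not read as tests. Among the 30 members well above background on at least 5 arrays of both floxed groups, 24 were called lower and 1 higher. The share of all genes under that condition was not counted, and the 5.2% and 3.22% are over all tested genes.

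**Figure D1:**
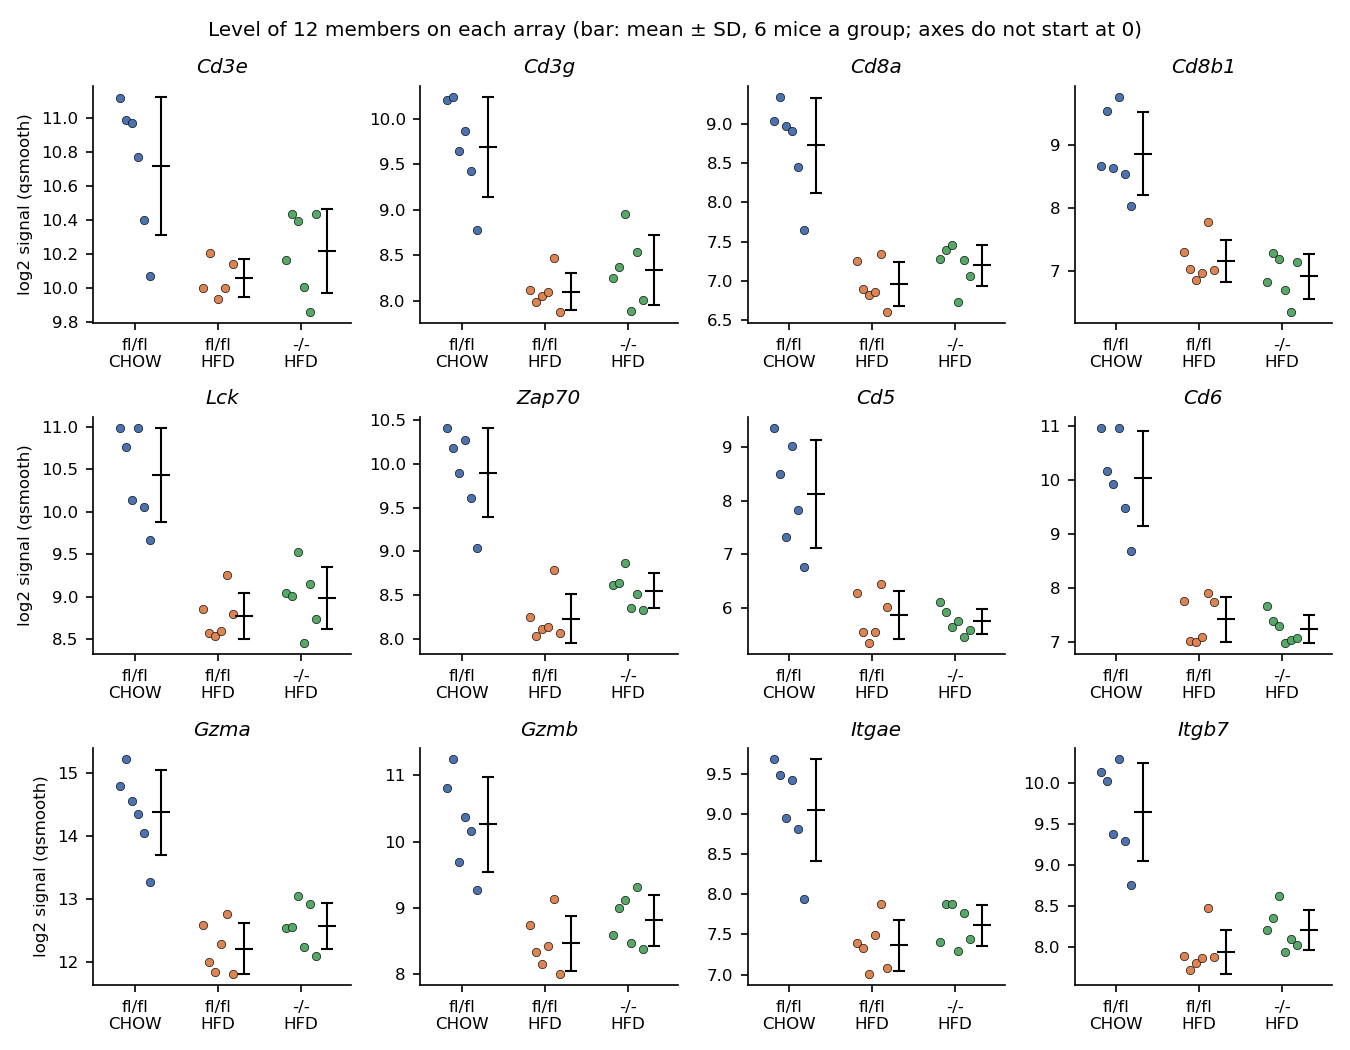
Level of 12 members on each array (vertical axes: log2 signal, not starting at 0), with the 6 mice of each group as points and the mean ± SD as a bar. For 11 of the 12 genes every floxed HFD array lies below every CHOW array, and for Cd3e the lowest CHOW array at 10.07 lies below the highest HFD array at 10.20.

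The CD3 chains and the CD8 coreceptor were lower on HFD, whereas Cd247 and Cd4 were not. Cd3g, the γ chain of CD3, read 8.78, 9.75 and 10.24 in iPGC1afl/fl CHOW, 7.88, 8.08 and 8.47 in iPGC1afl/fl HFD and 7.89, 8.31 and 8.95 in iPGC1a-/- HFD. It fell by 1.59 ± 0.21 (adjusted p = 1.56e-05), and the 2 floxed groups did not overlap. Cd3d, the δ chain, read 8.79, 9.997 and 10.28 in CHOW, 8.03, 8.15 and 8.63 in floxed HFD and 8.06, 8.52 and 8.98 in iPGC1a-/- HFD. It fell by 1.54 ± 0.22 (adjusted p = 3.88e-05), and its junction probe, printed above, fell by 1.50 ± 0.21. Cd3e, the ε chain, read 10.07, 10.87 and 11.12 in CHOW, 9.93, 9.999 and 10.20 in floxed HFD, where 1 outlying spot was dropped, and 9.85, 10.28 and 10.43 in iPGC1a-/- HFD. It fell by 0.66 ± 0.16 (adjusted p = 0.00543), just past the fold threshold, and the groups overlapped. With array weights the difference was -0.58 and no longer called. A less bright Cd3e probe fell by 0.75 ± 0.16. The 3 CD3 genes are neighbours, with all their brightest probes on chromosome 9 between 44777868 and 44806887.

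The CD8 coreceptor, which binds MHC class I, is made of an α and a β chain. Cd8a read 7.65, 8.94 and 9.35 in CHOW, 6.60, 6.88 and 7.35 in floxed HFD and 6.73, 7.27 and 7.45 in iPGC1a-/- HFD, and fell by 1.76 ± 0.21 with diet (adjusted p = 7.12e-06). Cd8b1 read 8.02, 8.65 and 9.75, then 6.86, 7.03 and 7.77, then 6.36, 6.99 and 7.29 in the same order of groups, and fell by 1.69 ± 0.24 (adjusted p = 3.8e-05). Neither gene had a floxed HFD array as high as its lowest CHOW array.

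Cd4, the coreceptor for MHC class II, was the only member called higher, at its brightest probe. That probe read 12.26, 13.11 and 13.77 in CHOW, 13.27, 13.61 and 14.23 in floxed HFD and 13.54, 13.80 and 14.71 in iPGC1a-/- HFD, so the groups overlapped. It rose by 0.62 ± 0.22 (adjusted p = 0.0487), whereas the other tested Cd4 probe differed by 0.06 ± 0.08 (adjusted p = 0.599) with group means of 5.41, 5.47 and 5.57. The Cd4 call was lost in 14 of the 18 fits that left out 1 array, and stayed only without CHOW replicate 3, floxed HFD replicate 1 or 4, or iPGC1a-/- HFD replicate 6. Over the 18 fits the adjusted p ran from 0.0168 to 0.134. Cd247, the ζ chain of the receptor complex, had means of 9.56, 9.58 and 9.50 and a diet difference of 0.01 ± 0.15 (95% interval -0.30 to 0.33). A second Cd247 probe, with means of 5.23, 5.34 and 5.23, differed by 0.12 ± 0.08, and the other 2 probes were not tested. Signals as low as those of this probe and of the second Cd4 probe left little room to show a fall.

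The 3 proximal signalling genes all fell. Lck, the kinase bound to CD4 and CD8, read 9.67, 10.45 and 10.99 in CHOW, 8.53, 8.70 and 9.25 in floxed HFD and 8.45, 9.02 and 9.53 in iPGC1a-/- HFD. Zap70, the kinase recruited to phosphorylated CD3 and ζ chains, read 9.04, 10.04 and 10.40, then 8.04, 8.13 and 8.79, then 8.33, 8.57 and 8.87. Lat, the membrane adaptor that Zap70 phosphorylates, read 7.05, 7.91 and 8.67, then 5.93, 6.50 and 6.95, then 6.42, 6.57 and 6.94. Each had all floxed HFD arrays below all CHOW arrays. The differences were -1.67 ± 0.21 for Lck, -1.66 ± 0.18 for Zap70 and -1.59 ± 0.22 for Lat. The adjusted p of Zap70, 2.75e-06, was the smallest of the members.

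Among the 9 tested surface and costimulatory receptors, 7 were called lower. Cd5 and Cd6, related scavenger receptor proteins that restrain TCR signals, fell most. Cd6 read 8.69, 10.05 and 10.96 in CHOW, 7.004, 7.42 and 7.90 in floxed HFD and 6.99, 7.18 and 7.67 in iPGC1a-/- HFD, and fell by 2.61 ± 0.29 (6.10-fold, adjusted p = 3.44e-06). Cd5 read 6.77, 8.16 and 9.36, then 5.34, 5.79 and 6.44, then 5.47, 5.70 and 6.12, and fell by 2.27 ± 0.33 (4.82-fold, adjusted p = 4.63e-05). The 6 CHOW mice differed widely among themselves in both genes, with an SD of 0.88 for Cd6 and 1.01 for Cd5, yet neither overlapped with the floxed HFD group.

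Cd52, a small GPI-anchored glycoprotein of lymphocytes, read 10.31, 10.86 and 12.12 in CHOW, 8.48, 8.93 and 10.20 in floxed HFD and 8.83, 9.47 and 9.92 in iPGC1a-/- HFD. Cd7, found on T and NK cells, read 10.07, 11.28 and 11.69, then 9.39, 9.57 and 9.87, then 9.38, 9.78 and 10.32. Cd2, an adhesion receptor that binds CD48 in mice, read 5.96, 7.03 and 8.12, then 4.78, 5.53 and 6.50, then 5.30, 5.54 and 6.07. The differences were -1.94 ± 0.30, -1.48 ± 0.22 and -1.42 ± 0.30 for Cd52, Cd7 and Cd2, and of the 3 only Cd2 had overlapping floxed groups. Thy1, the GPI-anchored Thy-1 antigen of mouse T cells, read 9.08, 9.62 and 10.33, then 8.30, 8.82 and 9.15, then 8.55, 8.76 and 9.14, and fell by 0.93 ± 0.18 (adjusted p = 0.000854) with groups that overlapped slightly.

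Icos and Cd69 lay near background and passed the filter through the CHOW arrays alone. Icos, a CD28 relative, read 5.11, 5.79 and 6.46 in CHOW, 4.25, 4.83 and 4.92 in floxed HFD and 4.62, 4.75 and 4.87 in iPGC1a-/- HFD, and was well above background on 6, 1 and 0 arrays of these groups. Since the CHOW arrays alone admitted it, its call and its measured difference of -1.02 are not read as a test. The value ran from -2.68 with the processed signal to -0.53, not called, with normexp background correction. Against the lowest signal well above background on each array, Icos was at least 1.87-fold higher in CHOW than in iPGC1a-/- HFD. Cd69, an early activation antigen, was well above background on 5, 1 and 0 arrays. Its measured difference was -0.48, short of the fold threshold and likewise not read as a test. Cd28, the main costimulatory receptor, differed by -0.28 ± 0.11 (adjusted p = 0.0734).

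Of the 5 NK-type receptors, 2 were called lower at the brightest probe. Cd96, a nectin-like receptor of T and NK cells, read 6.57, 8.03 and 8.28 in CHOW, 5.54, 6.09 and 6.56 in floxed HFD and 6.08, 6.32 and 6.52 in iPGC1a-/- HFD, and fell by 1.63 ± 0.23 (adjusted p = 4.36e-05). Klrd1, the CD94 partner of NKG2 receptors, read 7.65, 8.41 and 8.92, then 6.60, 7.26 and 7.57, then 7.10, 7.42 and 8.00, and fell by 1.19 ± 0.21 (adjusted p = 0.000366). In neither gene did the floxed groups overlap. Cd160 and Klrk1 (NKG2D) were well above background on all CHOW arrays and on 0 floxed HFD arrays. Both passed the filter through the CHOW arrays alone, so no test of their diet difference is given. Cd160 was at least 1.31-fold and Klrk1 at least 1.23-fold higher in CHOW than in floxed HFD. Their measured means were 5.28 against 4.83 and 5.22 against 4.87.

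Cd244 (2B4), which binds CD48, gave different values with different probes. The brightest probe, which holds the shared run of 16 bases printed above, had means of 10.36, 10.29 and 10.19 and a diet difference of -0.06 ± 0.09 (adjusted p = 0.658). The junction probe read 6.52, 7.05 and 7.40 in CHOW, 5.59, 6.17 and 6.30 in floxed HFD and 5.95, 6.22 and 6.50 in iPGC1a-/- HFD. It fell by 0.94 ± 0.14 (adjusted p = 7.73e-05) without overlap of the floxed groups. A further probe differed by 0.18 ± 0.09 (adjusted p = 0.164). With any tested probe of a gene allowed to make the call, an alternative chosen after seeing the data, 28 members were called lower. Ptprc (CD45), the phosphatase of all leukocytes and no member, showed the same division, with a difference of 0.03 ± 0.08 at its brightest probe and differences of -0.75, -1.02, -1.51 and -1.60, all called, at 4 others. Of the 14 members with more than 1 tested probe, 10 had every probe called lower, Cd247 and Cd69 had none called, and Cd244 and Cd4 had probes that differed.

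**Figure D2:**
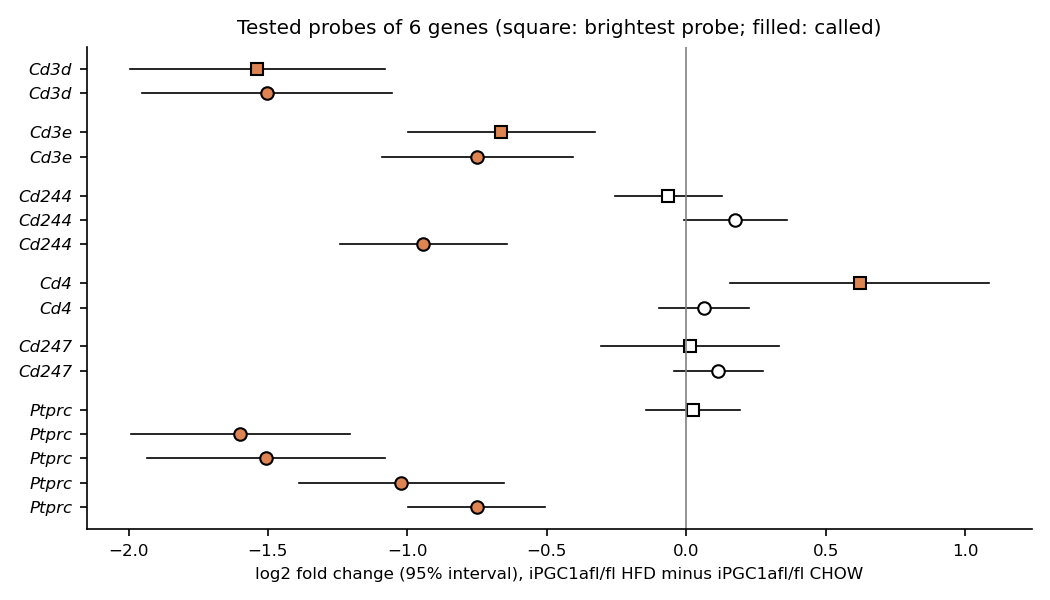
Diet difference (log2 fold change with 95% interval) at each tested probe of 5 members and Ptprc, ordered within a gene from the brightest CHOW signal down, with squares for the brightest probe and filled symbols for called probes. Both probes of Cd3d and of Cd3e lie left of 0, while for Ptprc the brightest probe lies near 0 and the other 4 between -0.75 and -1.60. Of the Cd244 probes only the junction probe, at -0.94, is filled.

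The cytotoxic genes held some of the largest falls, and the granzymes the largest of this group. Gzma, a granzyme of tryptase type, read 13.27, 14.46 and 15.23 in CHOW, 11.80, 12.14 and 12.76 in floxed HFD and 12.10, 12.55 and 13.04 in iPGC1a-/- HFD, and fell by 2.17 ± 0.26 (4.50-fold, adjusted p = 5.29e-06). Gzmb, the granzyme that cleaves after aspartate, read 9.27, 10.27 and 11.25, then 8.00, 8.38 and 9.13, then 8.38, 8.80 and 9.31, and fell by 1.80 ± 0.27 (3.47-fold, adjusted p = 6.58e-05). Every floxed HFD array lay below every CHOW array for both granzymes. Nkg7, a granule membrane protein, read 9.58, 10.61 and 11.19, then 8.63, 8.79 and 9.27, then 8.68, 9.20 and 9.69, and fell by 1.66 ± 0.23.

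Fasl, the ligand of the death receptor Fas, read 5.75, 6.49 and 6.95 in CHOW, 5.15, 5.33 and 5.78 in floxed HFD and 5.42, 5.47 and 5.76 in iPGC1a-/- HFD. It fell by 1.05 ± 0.15 (adjusted p = 5.18e-05), and the highest HFD array just passed the lowest CHOW array. Ifng, interferon-γ, read 5.29, 6.27 and 6.78, then 4.53, 4.90 and 5.14, then 4.80, 5.00 and 5.24, and was well above background on only 1 floxed HFD array and 2 iPGC1a-/- HFD arrays. It passed the filter through the CHOW arrays alone, so its call and its measured difference of -1.25 are not read as a test. That size was read against signals near background and ran from -2.87 with the processed signal to -0.74 with normexp correction. Prf1 and Xcl1 were the cytotoxic members that were not called. Prf1, the pore-forming perforin, had means of 6.72, 6.52 and 6.66 and a diet difference of -0.20 ± 0.09 (95% interval -0.40 to -0.01, adjusted p = 0.128). The chemokine gene Xcl1 had means of 6.51, 6.23 and 6.55 and a difference of -0.28 ± 0.17 (95% interval -0.63 to 0.08, adjusted p = 0.256).

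Both integrin chains of epithelial residence fell. Itgae (αE, CD103) read 7.94, 9.18 and 9.69 in CHOW, 7.004, 7.36 and 7.88 in floxed HFD and 7.30, 7.61 and 7.88 in iPGC1a-/- HFD. Itgb7 (β7) read 8.76, 9.71 and 10.30, then 7.72, 7.87 and 8.48, then 7.94, 8.15 and 8.62. The differences were -1.68 ± 0.22 (adjusted p = 1.89e-05) and -1.71 ± 0.21 (adjusted p = 7.95e-06), and the floxed groups did not overlap for either chain.

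The 3 tested regulators all fell. Tbx21 (T-bet), a driver of cytotoxic and type 1 programmes, read 6.19, 7.22 and 7.38 in CHOW, 5.59, 5.97 and 6.16 in floxed HFD and 6.03, 6.20 and 6.52 in iPGC1a-/- HFD. Gata3, needed for T cell development and type 2 programmes, read 6.23, 6.72 and 7.31, then 5.32, 5.61 and 6.15, then 5.58, 5.72 and 6.06. Il2rb, the β chain that receives IL-2 and IL-15, read 7.16, 8.02 and 8.55, then 6.70, 6.93 and 7.15, then 6.71, 7.15 and 7.41. The differences were -1.04 ± 0.17, -1.07 ± 0.15 and -0.99 ± 0.17, with no overlap of the floxed groups in any of the 3.

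**Figure D3:**
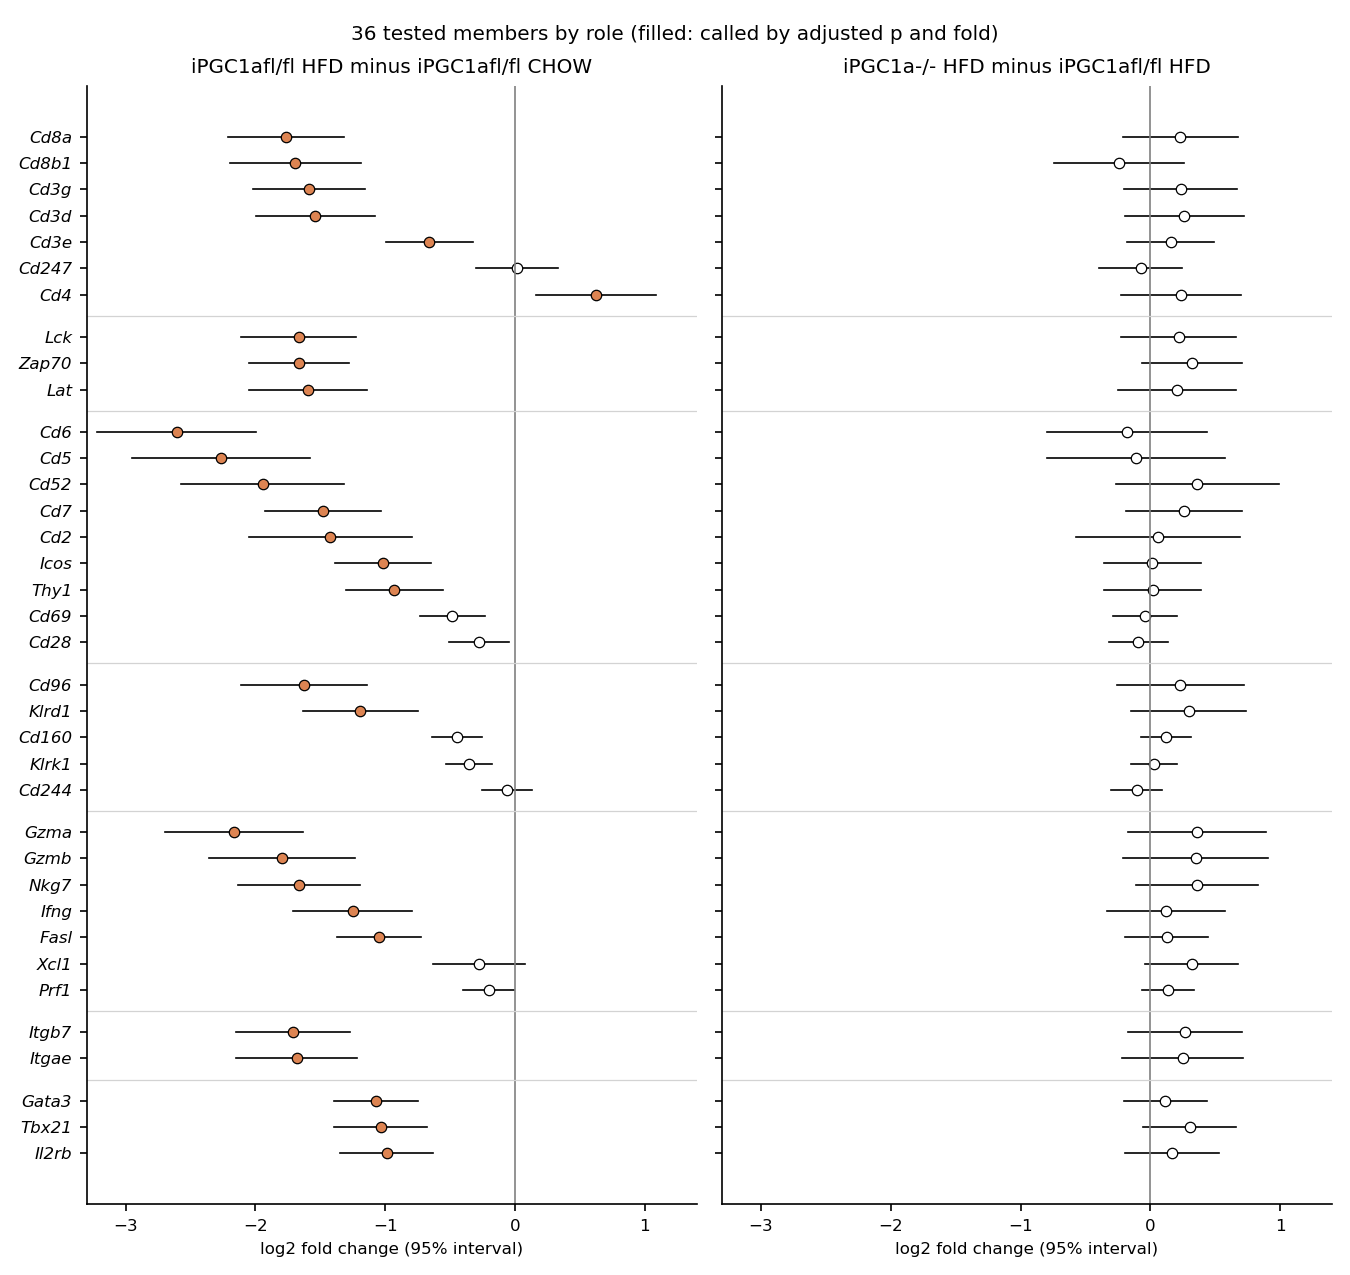
Log2 fold change with its 95% interval for each tested member, ordered by role, for diet in floxed mice (left) and for genotype on HFD (right), with called genes filled. On the left 27 members are filled below 0 and Cd4 above it, and on the right no member is filled.

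Between the genotypes on HFD, no member was called. Of the 36 tested members, 0 were called lower or higher by limma, while 0.0743% of all tested genes were called lower and 0.0603% higher. At an unadjusted p under 0.05 there were 0 members, against 9.3% of all tested genes. The median difference, iPGC1a-/- HFD minus iPGC1afl/fl HFD, was 0.19 against 0.01 over all tested genes, with 29 member means higher and 7 lower, where 48.1% of all tested genes had lower means. The differences ran from -0.24 for Cd8b1 to 0.36 for Cd52, and the smallest adjusted p was 0.566, for Xcl1. For Gzma the difference was 0.36 ± 0.26 (95% interval -0.17 to 0.89), for Gzmb 0.35 ± 0.27 (-0.21 to 0.91) and for Cd8a 0.23 ± 0.21 (-0.21 to 0.68). The 95% interval lay within 1.5-fold in either direction for 14 of the 36 members and for 90.6% of all tested genes. For the other 22 a larger difference was not excluded. These intervals and p-values draw their spread from all 3 groups in 1 model. The median SD of a member was 0.54 in CHOW, 0.27 in floxed HFD and 0.26 in iPGC1a-/- HFD, so the CHOW mice add to the width. No member was called with only the 2 HFD groups fitted either. Within slides the median difference was 0.12, -0.02 and 0.41.

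The size of the diet difference varied with the array. Taking for each array the median over the tested members of the difference from the CHOW mean, the CHOW arrays spread from -0.76 to 0.47, the floxed HFD arrays from -1.52 to -0.87 and the iPGC1a-/- HFD arrays from -1.43 to -0.81. All 12 HFD arrays lay below all 6 CHOW arrays, while the same median over all tested genes stayed between -0.04 and 0.02. CHOW replicate 6 was the lowest CHOW array for 28 of the 36 members, and floxed HFD replicate 5 the highest of its group for 25. The median SD of a member was 0.54 among CHOW mice, 0.27 among floxed HFD mice and 0.26 among iPGC1a-/- HFD mice, against 0.17 to 0.18 for all genes. Within slides 1, 2 and 3 the median diet difference was -1.41, -0.72 and -1.66, and 35, 32 and 33 of the 36 members had lower means on HFD. Slide 2 held CHOW replicates 5 and 6.

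**Figure D4:**
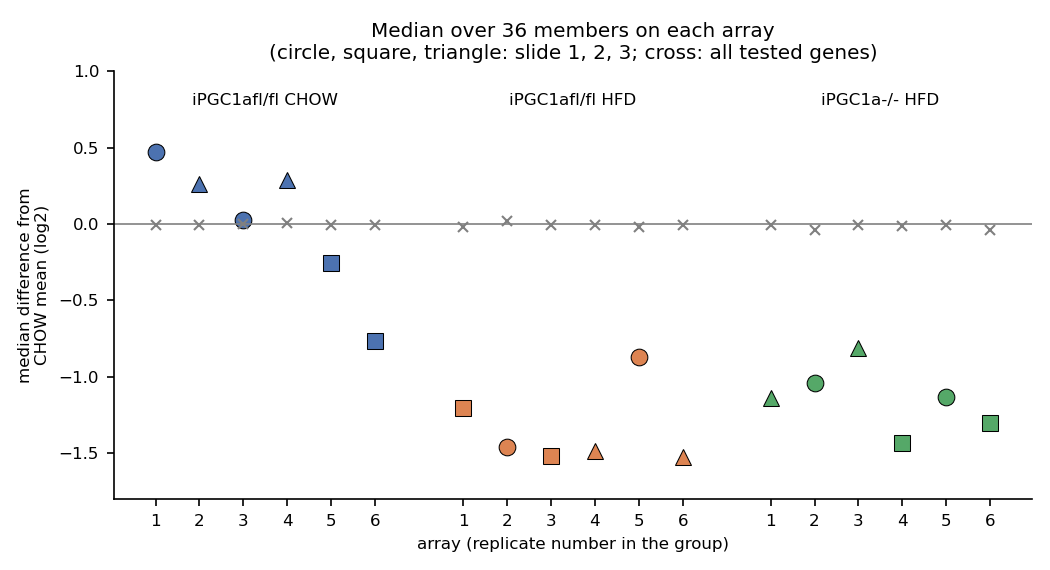
Median over the 36 tested members of the difference from the iPGC1afl/fl CHOW mean (vertical axis, log2) on each of the 18 arrays, with symbols for the 3 slides and crosses for the same median over all tested genes. The CHOW arrays span -0.76 to 0.47 and the HFD arrays -1.52 to -0.81, and the crosses stay within 0.04 of 0.

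Other T cell genes outside the set moved in the same comparison. Of 21 tested genes of TCR signalling, 15 were called lower and 0 higher. They included Lcp2, the SLP-76 adaptor (-1.34 ± 0.17), Grap2, the adaptor Gads (-1.23 ± 0.17), and Rasgrp1, a Ras exchange factor (-1.16 ± 0.16). Of 16 tested cytotoxic and NK receptor genes, 14 were called lower, among them Srgn, the granule proteoglycan serglycin (-1.99 ± 0.21), Ccl5, a chemokine of effector T cells (-1.94 ± 0.27), Cst7, cystatin F (-1.26 ± 0.18), and Gzmk, a further granzyme (-1.21 ± 0.20). Of 19 tested genes of homing and residence, 12 were called lower, among them the receptor genes Il7r (-1.63 ± 0.23), Ccr9, which guides T cells to the small intestine (-1.39 ± 0.15), Ccr7 (-1.37 ± 0.29) and the integrin gene Itga4 (-1.26 ± 0.22). Of 11 tested T helper and regulatory genes, 5 were called lower, led by Ccr6 (-2.01 ± 0.43), Cxcr5 (-1.25 ± 0.24), Ikzf2 (-1.15 ± 0.17) and Tnfrsf18 (-0.92 ± 0.12), and 1 higher. Foxp3, Il17a, Il22 and Il10 were among the 9 genes of that list that were not tested. Of 11 T cell receptor chain genes on the array only 2 were tested, and Tcrg-V1, a γ chain segment, was called lower (-1.28 ± 0.15, adjusted p = 4.3e-06), while Trav6-3, an α chain segment, differed by 0.03 ± 0.07 (adjusted p = 0.827). Between the genotypes, 0 of the 87 tested genes of these lists and of the epithelial list below were called by limma. At an unadjusted p under 0.05 there were 5, against 9.3% of all tested genes.

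Epithelial genes that speak to intraepithelial lymphocytes did not move as one. Of 18 tested ligands and cytokines, 3 were called lower and 1 higher, with a median of 0.05. Il15, the cytokine that sustains these cells, rose by 1.01 ± 0.15 (adjusted p = 5.35e-05), from a mean of 10.78 to 11.79, with 11.95 in iPGC1a-/- HFD, and all 6 floxed HFD arrays lay above all 6 CHOW arrays. Ceacam1 fell by 0.77 ± 0.12, the NKG2D ligand gene Raet1e by 0.70 ± 0.14 and Tgfb1 by 0.61 ± 0.14.

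Many pan-leukocyte, B cell and plasma cell markers moved with the T cell genes. Of 8 pan-leukocyte genes, 5 were called lower, including the actin regulators Coro1a (-1.84 ± 0.27) and Lcp1 (-1.28 ± 0.19). Of 9 tested B cell genes, 6 were called lower, including the receptor gene Cd79b (-2.60 ± 0.52), and the summed signal of the list ran from 1382 to 4446 in CHOW, 846 to 1936 in floxed HFD and 963 to 1748 in iPGC1a-/- HFD. Of 5 tested plasma cell genes, 4 were called lower, led by Jchain (-3.23 ± 0.39), with summed signals of 1589 to 2512, 949 to 1275 and 1017 to 1302. Of the B and plasma cell markers on the array, Blk and Tnfrsf17 were not tested. Their part in the result for the members was not tested.

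The remaining cell type lists are read against the 5.2% of all tested genes called lower and 3.22% called higher. Of 9 tested macrophage and dendritic cell genes, 1 was called, Itgax (-0.82 ± 0.21), which some intraepithelial T cells also carry, and Adgre1, C1qa and Cd163 were not tested. The NK cell markers Ncr1, Klrb1c, Klra8 and Klra4 were not tested because none was well above background on enough arrays. Of the 3 tested genes of the NK and innate lymphoid list, 1 was called lower, the Il7r described above, and 1 higher. Of 13 enterocyte genes, 1 was called lower, the bile acid transporter gene Slc10a2 (-1.07 ± 0.33), and 2 higher, Apoa4 (0.98 ± 0.18) and Alpi (0.90 ± 0.15). The summed signal of the 13 genes overlapped between the groups, at 1049000 to 1242000, 1068000 to 1237000 and 1132000 to 1297000. A sum of signals follows its brightest genes most, so its overlap does not speak for each gene. The stromal and muscle (7 tested), mast cell (4), erythroid (2) and endothelial (1) lists had 0 genes called by limma with diet and 0 of 14 at an unadjusted p under 0.05. Between the genotypes, 0 of the 61 tested cell type genes were called by limma. At an unadjusted p under 0.05 there were 6, near the share of 9.3% over all tested genes. These 6 included all 4 tested mast cell genes, with genotype differences of -1.41 ± 0.41 for Mcpt4, -1.24 ± 0.39 for Mcpt1, -0.40 ± 0.15 for Mcpt2 and -0.32 ± 0.10 for Kit, at adjusted p from 0.27 to 0.429.

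**Figure D5:**
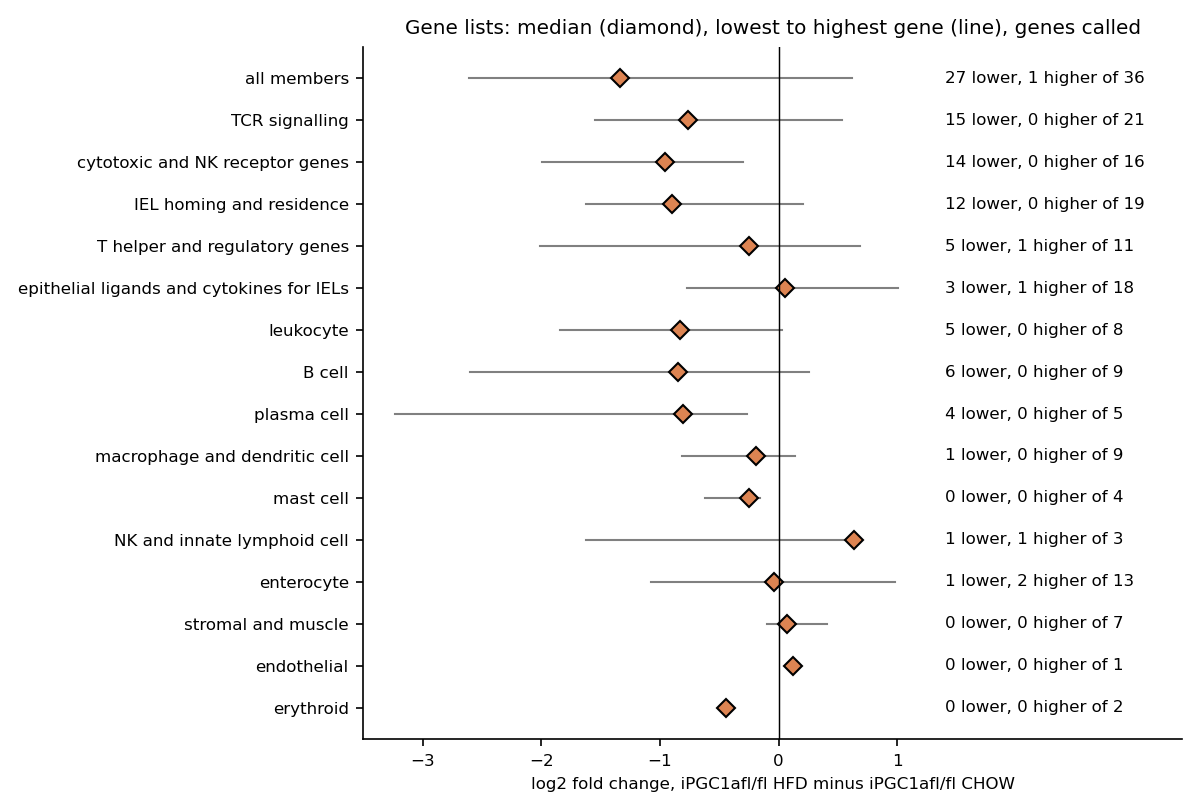
Median log2 fold change with diet in floxed mice (diamond) and the range from the lowest to the highest gene (line) for the members, 5 lists of related genes and 10 cell type lists, with the number of called genes at the right. The members have a median of -1.34, the TCR signalling, cytotoxic, homing, leukocyte, B cell and plasma cell lists lie between -0.77 and -0.96, and the enterocyte and stromal lists lie near 0.

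The promoters of the members were searched for 5 short motifs. RefSeq windows of GRCm38.p6, from 250 bases before to 50 after the transcript start, were found for 25 of the 39 members and for 27025 gene symbols in all, with the window listed at the top for each symbol. The letters TGTGGT, a core bound by RUNX factors, were present on either strand in 10 of the 25 member windows (40.0%) and in 16.9% of all windows. CAGGAAG, an ETS core, was present in 10 of 25 (40.0%) against 13.0%. AGATAA for GATA factors was present in 1 against 11.4%, TCACACC for T-box factors in 2 against 3.96%, and CTTTGAA for TCF factors in 1 against 5.27%. Of the 25 members with a window 17 were called lower, while Cd27, Ctla4 and Eomes were not tested and could not be called. Of the 10 with the RUNX letters 6 were called lower, as were 7 of the 10 with the ETS letters, all of them tested. Those not called lower were Cd160, Klrk1, Prf1 and Xcl1 for RUNX and Cd247, Prf1 and Xcl1 for ETS. No motif is contained in another, and a match is a description of these letters and not of binding. The 250 bases before the start are shown for a granzyme, a granule gene and a kinase, all called lower, with matches to any of the 5 motifs on either strand in capitals.
Gzmb, chr14:56262335-56262584, minus strand: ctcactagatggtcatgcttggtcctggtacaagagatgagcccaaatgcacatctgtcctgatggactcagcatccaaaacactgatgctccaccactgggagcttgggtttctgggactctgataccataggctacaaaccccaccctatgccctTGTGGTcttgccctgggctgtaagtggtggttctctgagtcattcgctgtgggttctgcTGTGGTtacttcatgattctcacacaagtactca
Nkg7, chr7:43436888-43437137, plus strand: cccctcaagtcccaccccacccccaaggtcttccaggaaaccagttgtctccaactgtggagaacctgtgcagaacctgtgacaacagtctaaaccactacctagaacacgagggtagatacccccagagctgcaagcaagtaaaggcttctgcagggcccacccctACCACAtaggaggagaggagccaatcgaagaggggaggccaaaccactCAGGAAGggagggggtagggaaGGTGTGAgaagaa
Lck, chr4:129573642-129573891, minus strand: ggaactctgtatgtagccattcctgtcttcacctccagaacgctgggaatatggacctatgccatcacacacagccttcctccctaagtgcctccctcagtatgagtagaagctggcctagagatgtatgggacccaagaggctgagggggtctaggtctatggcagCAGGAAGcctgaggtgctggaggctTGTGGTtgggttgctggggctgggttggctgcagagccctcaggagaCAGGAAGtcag
Gzmb holds the RUNX letters at 2 places. Nkg7 holds 1 match each to the RUNX, ETS and T-box letters, and Lck holds the RUNX letters at 1 place and the ETS letters at 2.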

How the data were processed

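Ileum cells of 18 mice were analysed, each on an Agilent SurePrint G3 Mouse GE v2 array of 1 colour. The authors extracted spots with Feature Extraction 10.10.1.1 and deposited each array's spot intensity (median, mean, background, processed signal) with no normalization across arrays. Their series table, also deposited, gives log2 values of 33095 probes, each column with a median of 7.44 and a correlation of 1.00 with that array's log2 median signal. The methods add a correction for washing bath and labelling serial, which the labels do not give and which was not repeated.

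Groups and replicate numbers came from the labels. Control spots were dropped, as were 46 to 153 outlier spots an array, and spots of 1 probe averaged. A probe was kept if 5 or more of the 6 arrays in any group read it well above background. Normalization of the log2 median signal followed qsmooth, rewritten here with a window of 0.05. All 3 groups entered 1 limma model (limma 3.58.1, R 4.3.3, data.table version 1.17.8), and p-values were adjusted by Benjamini-Hochberg across 32726 probes. Calls required, at the brightest probe, an adjusted p up to 0.05 with a fold over 1.5. An "at least" fold sets the bright group's mean against the lowest signal well above background on each dim array. Precision rests on the number of arrays: the median SE of a member was 0.21. The fit was also run on simulated data, with independent probes and an equal spread in every group. Members differed in spread between groups here, so nothing is concluded from that run. Sequences and figures were made in Python 3.11.15 with matplotlib 3.10.9.

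The members, gene lists and motifs were chosen with earlier results of these data known, so list counts are descriptions without a test. All members may be named, and from each other list at most 4 genes: the called genes with the largest change, or else the brightest. Values of some single genes of these lists are not reported here. Ptprc, Blk, Tnfrsf17 and other genes that were not tested were named outside this rule. Alternatives were other background corrections, normalizations, filters and thresholds, the authors' log2 table, slide and replicate blocks, the 2 groups alone, variance settings, array weights, averaged probes, each array left out and 2 other probe rules that were chosen after seeing the data.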

Additional observations from a re-analysis of the deposited data

Results flagged for a closer look

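In 4 of 108 sets of 6 arrays, 1 array stood apart from the other 5, and chance sets about 1 in 20 apart. The 108 include Cd3e in iPGC1afl/fl HFD, which was not examined because 1 array had no value. Zap70 read 8.79 on iPGC1afl/fl HFD replicate 5, against 8.04 to 8.25 on the others. Itgb7 read 8.48 on the same array, against 7.72 to 7.90. Xcl1 read 5.36 on iPGC1afl/fl HFD replicate 6, against 6.17 to 6.58. Cd244 read 10.46 on iPGC1a-/- HFD replicate 3 at its brightest probe, against 10.04 to 10.17.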

How the results depend on the processing

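Across 17 alternative settings 23 to 30 members were called lower with diet, and 27 in each of the 18 fits without 1 array. The median diet difference ran from -1.66 to -0.99 over settings, the latter with normexp background correction, and from -1.47 to -1.19 without 1 array. The count of members called higher, Cd4 alone, was 0 with normexp correction, no filter, only the groups compared, trended and robust variance, an adjusted p of 0.01 or averaged probes, and 0 to 1 without 1 array. Cd247 ran from -0.0665 to 0.0799 without 1 array, and Cd244 was 0.0163 with the processed signal and 0.176 at the brightest probe without a shared run. Cd69, Cd160 and Klrk1, which passed the filter through the CHOW arrays alone, were called with the processed signal or without a fold threshold. In every fit that measured them, 28 tested members kept direction and call. The cause of these changes was not tested. No member was called by genotype in any fit, and its median ran from 0.13 to 0.25 over settings and 0.12 to 0.25 without 1 array.

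Same-numbered mice of different groups correlated from -0.19 to 0.33, with 7 of 12 pairs over 0.1. The own number was the best match in 7 of 12, a hint of pairing from the data that the labels do not give, and the numbers were not treated as pairs. With the replicate block 1828 of all tested genes were called with diet, against 1815 without it. Of the members 27 were called lower and 1 higher, and their median was -1.34.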
